A study of Mus musculus with 12 samples.

Results

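The scatter of mouse spleen transcriptomes around the mean of their own group was measured gene by gene, and the genes that scattered together were described, in a bulk RNA-seq study of 3 groups. All 12 libraries of the series were used, 4 per group, and 18542 of the 53715 genes in the count table passed the filter on low counts. The quantity throughout is the SD, over the 4 libraries of a group, of log2 CPM (counts scaled to library size, with a correction for library composition). Group means are not compared.

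All 3 groups were on BXSB and carried, in a combination labelled Yaa DKO, the targeted alleles Cd8atm1Mak and Il15tm1Imx together with Yaa, so these alleles were common to every library. The group DKO_6wk_Untreated was untreated at 6 weeks (replicates 1 to 4), DKO_10wk_Untreated was untreated at 10 weeks (replicates 5 to 8), and DKO_10wk_2DG-treated was 10 weeks old and drank water with 2DG at 6 g/L (replicates 9 to 12). Yaa is a translocation to the Y chromosome of an X segment that holds Tlr7, a sensor of single-stranded RNA, and it speeds lupus-like disease in the BXSB strain. Cd8a encodes a chain of the CD8 coreceptor, Il15 a cytokine that sustains natural killer and memory CD8 T cells, and 2DG (2-deoxyglucose) is a glucose analogue that blocks glycolysis. Whether each library came from its own mouse is not said, so p-values here measure only the spread between libraries, part of which may be technical.

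The spleen joins lymphoid follicles, where B cells meet antigen and form germinal centres, with a red pulp of macrophages that clear blood cells. In mice the red pulp can also make erythrocytes, platelets and granulocytes. Interferons, hormones such as glucocorticoids and the day-night clock act on many of these cells at once, so each leaves a set of genes that can move together from one spleen to the next.

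The lowest and highest total counts were 15596040 and 22480545 at 6 weeks, 20692818 and 26079979 for untreated 10-week spleens, and 21581820 and 23835453 with 2DG. Each library detected 26385 to 27722 genes. The labelled tissue was checked against markers. All 18 mature B cell, 16 resting T cell, 18 splenic macrophage and 25 stroma and endothelium genes on the lists passed the filter, against 2 of 19 pancreas genes and 6 of 11 fat tissue genes. Among untreated 10-week libraries replicate 6 lay farthest from the group mean, and replicate 8 differed most in its shares of mitochondrial and immunoglobulin counts, given below. For several results that rest on a library, a value without it is also given.

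Untreated spleens at 10 weeks scattered more than either of the other groups. The median SD over the 18542 genes was 0.145 at 6 weeks, 0.234 in untreated spleens at 10 weeks and 0.138 with 2DG. An SD above 1, on the log2 scale, was found for 112 genes at 6 weeks, 518 in untreated spleens at 10 weeks and 61 with 2DG. For 65.6% of genes the widest of the 3 groups was the untreated 10-week group, and for 17.7% and 16.6% it was the 6-week group and the 2DG group. The biological coefficient of variation that edgeR fitted in each group alone was 0.127, 0.241 and 0.114.

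The distance of a library from its group mean, as the root mean square of its deviations over all genes tested, gives 1 value per library. At 6 weeks the distances of replicates 1 to 4 were 0.252, 0.213, 0.231 and 0.247, with a mean of 0.236 ± 0.0177 (SD, n = 4). In untreated spleens at 10 weeks replicates 5 to 8 lay at 0.356, 0.437, 0.298 and 0.328, with a mean of 0.355 ± 0.0596 (SD, n = 4). With 2DG replicates 9 to 12 lay at 0.224, 0.225, 0.209 and 0.235, with a mean of 0.223 ± 0.0109 (SD, n = 4). Every untreated 10-week library was farther from its group mean than any library of the other groups, with replicate 6 the farthest, whereas the 6-week and 2DG libraries overlapped.

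The mean distance in untreated 10-week spleens was 1.51 times that at 6 weeks and 1.59 times that with 2DG (two-sided exact permutation test over 4 against 4 libraries, p = 0.0286 in each, adjusted p = 0.0429 over the 3 pairs). This p is the smallest that 4 against 4 allows, both tests share the untreated 10-week libraries, and distances within a group share its mean and are not independent. The 2DG and 6-week groups differed by -0.0126, a ratio of 0.947 (exact permutation p = 0.257). In size this difference lay between the SD of the 2DG libraries, 0.0109, and that of the 6-week libraries, 0.0177. Without replicate 6 the ratios were 1.30 and 1.35 and the groups still did not overlap. Leaving out any single 6-week library, or 2DG replicate 9, 10 or 11, gave an adjusted p of 0.0857 with groups that still did not overlap.

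**Figure D1:**
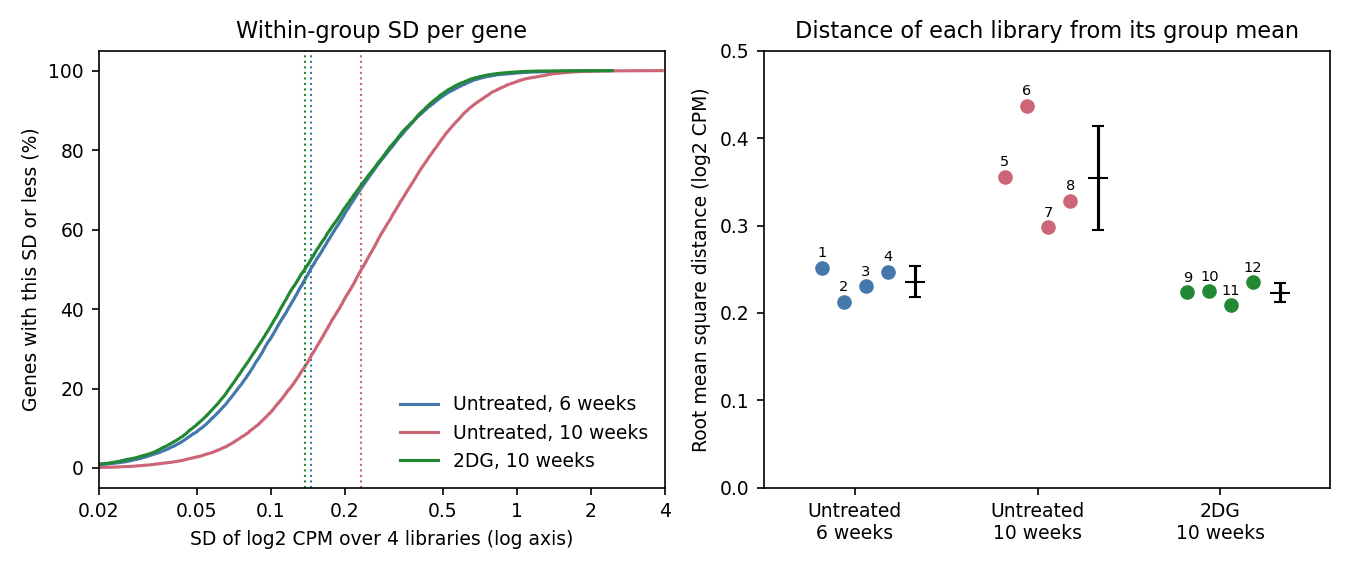
Left, the percentage of the 18542 genes with a within-group SD of log2 CPM at or below the value on the x axis (log axis) for each group, with dotted lines at the medians of 0.145, 0.234 and 0.138; the untreated 10-week curve lies to the right of the others. Right, the root mean square distance of each library from its group mean in log2 CPM, labelled by replicate, with the mean and SD of 4 libraries in black; the untreated 10-week libraries lie from 0.298 to 0.437, above all others.

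The ratio of the SDs was lowest in the genes of lowest counts. For genes below 0 on the log2 CPM scale the median SD was 0.382 at 6 weeks and 0.464 in untreated 10-week spleens, against 0.404 from counting alone, and the median of the gene-wise ratio was 1.22. For the 598 genes at 8 or above the medians were 0.0798 and 0.152 against a counting SD of 0.016, and the median ratio was 1.99. After subtraction of the counting variance the median SD over all genes was 0.0826, 0.177 and 0.076 in the 3 groups.

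Gene by gene, the SD in untreated 10-week spleens was at least 2 times that at 6 weeks for 36.1% of genes and at most 1 in 2 for 4.77%. Against 2DG these shares were 39% and 4.63%. Between 2DG and 6 weeks they were 13.5% and 17.1%, and the 2DG group was the wider, by any amount, for 47.4% of genes. The median ratio was 1.59, 1.65 and 0.954 in the same order. The shares for untreated 10-week spleens, and the 65.6% above, are over genes of all levels, and the ratios were lower at low counts. For lists of highly expressed genes they are therefore a low yardstick. Across the 12544 genes with an average log2 CPM of at least 2, Spearman's rho of the SDs was 0.575 between the untreated groups, 0.510 between the 10-week groups and 0.481 between 2DG and 6 weeks, as a description across genes, which are not independent replicates.

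No single gene passed the test of unequal spread, a limma fit to absolute deviations from the group mean with Benjamini-Hochberg adjustment over all genes tested. The count at an adjusted p under 0.05 was 0 (0%) in each pair. At an unadjusted p under 0.05 the same fit gave 1622 genes (8.75%) wider and 109 (0.588%) narrower in untreated 10-week spleens than at 6 weeks, 1827 (9.85%) and 121 (0.653%) against 2DG, and 220 (1.19%) and 222 (1.2%) for 2DG against 6 weeks. The smallest adjusted p was 0.109 for Plau, a secreted protease, against 6 weeks, and 0.0682 for Prdm9, a histone methyltransferase of meiosis, against 2DG. Both were chosen after their values were seen. The fit as first planned, without the correlation between deviations from a shared mean, called 64 genes wider and 3 narrower against 6 weeks, 94 and 4 against 2DG, and 0 in the third pair, but it made too many calls on simulated data. With 4 libraries a group the test found few of the changes put into simulated counts for the 10-week against 6-week comparison. With an SD factor of 4 set for 200 of 18350 genes it recovered 7, beside 2 false calls. With a factor of 8 for 200 of 18345 it recovered 14, beside 1 false call. The SD of log2 CPM that these factors gave is not reported here. Recovery when many genes widen together was not tested. The gene-level results that follow are therefore values in each library, not calls.

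Neutrophil genes had the highest median SD of the lists in untreated 10-week spleens. Over the 21 neutrophil genes the median SD was 0.51, 1.32 and 0.67 at 6 weeks, in untreated 10-week and in 2DG spleens, and 21 of 21 were widest in untreated 10-week spleens, beside 65.6% of all genes. Their SD there was at least 2 times that at 6 weeks for 15 of 21, beside 36.1%. Without replicate 6 the untreated 10-week median was 0.97, from fewer libraries. The co-movement ratio, the variance of the list mean over the mean variance of its members, was 0.81, 0.83 and 0.86. That ratio is 1 when all members shift by the same amount and near 1 over the number of members when they vary independently. It is lower still when members shift in opposite directions. In each group the neutrophil genes thus shifted almost as a unit.

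Ms4a3, a gene of granulocyte precursors and the widest of this list at 10 weeks, was at 3.29, 42.6, 8.58 and 3.15 CPM in replicates 5 to 8. Replicate 6 stood alone above the others, whereas the 6-week and 2DG values lay at 4.74 to 10.7 and at 3.58 to 7.40 CPM. Without replicate 6 the SD of Ms4a3 was 0.80 in place of 1.74, from fewer libraries. Mpo, myeloperoxidase of the primary granules, was at 34.8, 333, 95.9 and 35.3 CPM, and Ctsg, the granule protease cathepsin G, at 5.90, 57.6, 17.1 and 5.75. S100a8, a subunit of the calprotectin of mature neutrophils and chosen here after its values were seen, was at 115, 841, 427 and 146 CPM. All of these were highest in replicate 6 and next highest in replicate 7, with replicates 5 and 8 low.

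The same order held for the list mean, whose deviations in replicates 5 to 8 were -1.10, 1.40, 0.48 and -0.79. The 9 tested mast cell and basophil genes deviated by -0.74, 1.02, 0.41 and -0.69, in the same order, with a median SD of 0.39, 0.81 and 0.43 in the 3 groups. Their co-movement ratio was 0.12 at 6 weeks and 0.78 in untreated 10-week spleens. Chil3, which encodes a chitinase-like protein of myeloid cells (ENSMUSG00000040809.10, chromosome 3, 106147554 to 106167564, GRCm38), was at 31.3, 709, 137 and 44.9 CPM in replicates 5 to 8, a SD of 2.02 against 0.75 at 6 weeks and 0.62 with 2DG. In bulk tissue, fewer cells of a type and less RNA per cell cannot be told apart.

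Neutrophil genes also scattered in the other groups, with the highest median SD of the 28 lists plotted, in each. At 6 weeks the list mean deviated by 0.62, 0.14, -0.50 and -0.26 in replicates 1 to 4. With 2DG it deviated by -0.40, 0.37, 0.62 and -0.59 in replicates 9 to 12, so replicates 10 and 11 were high and replicates 9 and 12 low. Of the 8 genes with the largest SD in the 2DG group, under the rule for named genes, 4 belong to granulocytes or their precursors. These were Mpo at 31.5, 79.4, 94.4 and 36.3 CPM, Ctsg at 4.55, 10.9, 13.5 and 4.78, Cebpe, a transcription factor of granulocyte maturation, at 2.95, 4.31, 6.06 and 1.61, and Chil1, a chitinase-like protein, at 3.87, 6.40, 9.57 and 2.72.

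**Figure D2:**
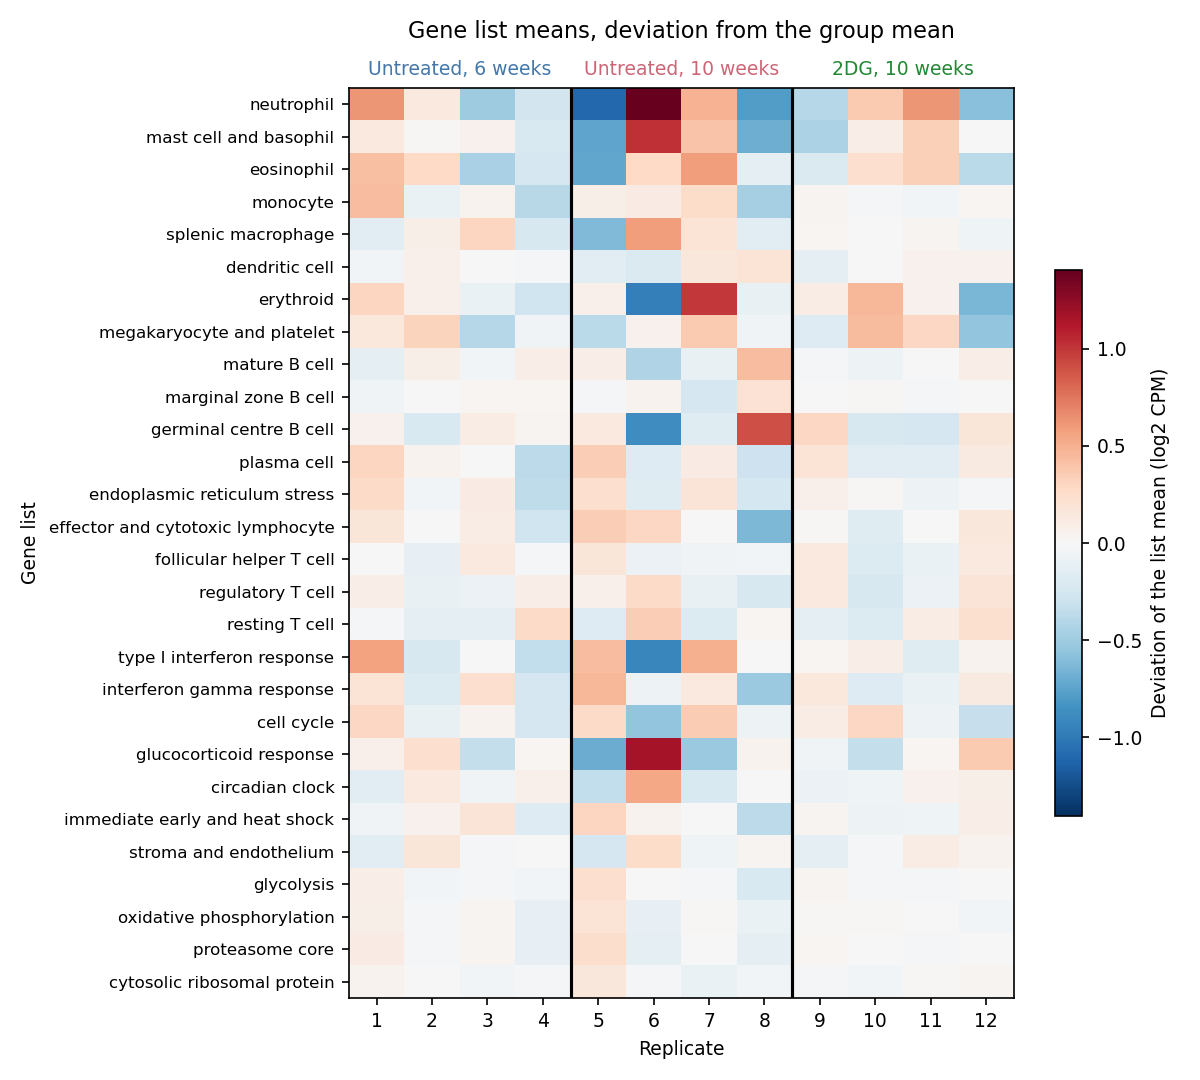
Deviation of the mean log2 CPM of each gene list from its group mean (colour, log2 CPM) in each of the 12 libraries (x axis, by replicate), for 28 lists. The largest shift of the lists plotted is that of the neutrophil genes in replicate 6, 1.40, where the erythroid genes lie at -0.96.

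Erythroid genes, which serve haemoglobin and the red cell skeleton, also had a wide spread. Of its 26 members 25 were tested, and their median SD was 0.30, 0.76 and 0.48 in the 3 groups, with 24 of 25 widest in untreated 10-week spleens, beside 65.6% of all genes. The list mean deviated by 0.067, -0.96, 1.00 and -0.10 in replicates 5 to 8. Hba-a1, an alpha globin gene with a near-identical copy whose shared reads make its level uncertain, was at 1138, 265, 2871 and 1359 CPM. Replicate 6 was the lowest and replicate 7 the highest, the reverse of what replicate 6 showed for neutrophil genes, while replicate 7 was above the mean for both lists.

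With 2DG the erythroid genes moved as 1 unit, with a co-movement ratio of 0.96 against 0.65 at 6 weeks and 0.82 in untreated 10-week spleens. Hba-a1 was at 3044, 3758, 3424 and 1771 CPM in replicates 9 to 12, with replicate 12 the lowest. Megakaryocyte and platelet genes were the 1 list here with its widest spread under 2DG for most members, 14 of 18 beside 16.6% of all genes. Their median SD was 0.32, 0.33 and 0.47 in the 3 groups. Their list mean deviated by -0.18, 0.44, 0.29 and -0.55 in replicates 9 to 12, beside 0.10, 0.47, 0.064 and -0.64 for the erythroid genes. Clec1b, a receptor of platelets, was at 31.9, 35.3, 31.9 and 21.4 CPM there and at 15, 49.5, 28.5 and 21.9 in untreated 10-week spleens.

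Genes of the cell cycle were tightly joined in all groups. All 30 were tested, 30 of 30 were widest in untreated 10-week spleens (beside 65.6% of all genes), and the co-movement ratio was 0.90, 0.92 and 0.87. Their median SD was 0.24, 0.41 and 0.25 in the 3 groups. Without replicate 6 the untreated 10-week median was 0.26, from fewer libraries. Cenpf, a kinetochore protein, was at 159, 74.2, 200.2 and 124 CPM in replicates 5 to 8. The list deviated by 0.27, -0.56, 0.36 and -0.068, with replicate 6 the lowest, as for the erythroid list.

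Every mature B cell gene scattered most in untreated 10-week spleens, as did 65.6% of all genes. The median SD of the 18 genes was 0.11, 0.34 and 0.095. Of the 18, 15 and 17 had at least 2 times the SD at 6 weeks and with 2DG, beside 36.1% and 39% of all genes. For the 598 genes at 8 or above on the log2 CPM scale, near the level of this list, the median ratio was 1.99 and 1.85. The list deviated by 0.090, -0.42, -0.10 and 0.44 in replicates 5 to 8, low in replicate 6 and high in replicate 8. Cr2, complement receptor 2 of follicular and marginal zone B cells, was at 394, 377, 288 and 957 CPM in replicates 5 to 8, against 635, 776, 717 and 818 in replicates 1 to 4 and 927, 1080.2, 989 and 996 in replicates 9 to 12. Replicate 8 alone lay within the range spanned by the other groups. The SD of Cr2 was 0.75 and, without replicate 8, 0.25. Fcer2a, the low-affinity IgE receptor of follicular B cells, was at 203, 108, 277 and 381 CPM, with replicate 6 the lowest.

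Germinal centre B cell genes showed the same split between replicates 6 and 8, and more widely. The median SD of the 13 tested genes of 14 was 0.19, 0.61 and 0.28, and 9 of 13 had at least 2 times the SD at 6 weeks, beside 36.1% of all genes. Their mean deviated by 0.13, -0.87, -0.16 and 0.90 in replicates 5 to 8. Rgs13, a regulator of G protein signalling of germinal centre B cells (ENSMUSG00000051079.8, chromosome 1, 144138654 to 144177372, GRCm38), was at 5.27, 0.470, 4.70 and 30.0 CPM, while all 8 libraries of the other groups lay between 17 and 28.5. Mybl1, a transcription factor of the germinal centre chosen after its values were seen, was at 26.8, 6.20, 21.7 and 98.5 CPM. The median SD of the list was 0.46 without replicate 6 and 0.48 without replicate 8. Without both it was 0.22, from 2 libraries. For the same scatter the SD of fewer libraries has a lower median, which holds for every such value below.

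Plasma cell genes did not share this pattern. Their median SD was 0.32, 0.33 and 0.24, with 13 of 21 widest in untreated 10-week spleens, close to the 65.6% of all genes. The list deviated by 0.30, 0.051, 0.010 and -0.37 at 6 weeks and by 0.35, -0.18, 0.12 and -0.29 in untreated 10-week spleens. Bhlha15, a transcription factor of secretory cells, was at 26.7, 20.6, 18.5 and 10.7 CPM in replicates 1 to 4 and 61, 36.1, 42.9 and 20.3 in replicates 5 to 8. Genes of endoplasmic reticulum stress, which secretory cells use heavily, had a median SD of 0.28, 0.29 and 0.10, as wide at 6 weeks as in untreated 10-week spleens and narrower with 2DG. There 18 of 24 had at least 2 times the SD in untreated 10-week spleens, beside 39% of all genes, and 17 of 24 at 6 weeks, beside 17.1%. Creld2, a folding factor of that compartment, was at 150.2, 96.5, 109 and 63.2 CPM at 6 weeks, 248, 151, 229.7 and 134 in untreated 10-week spleens and 54.3, 49.3, 48.8 and 60.1 with 2DG.

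**Figure D3:**
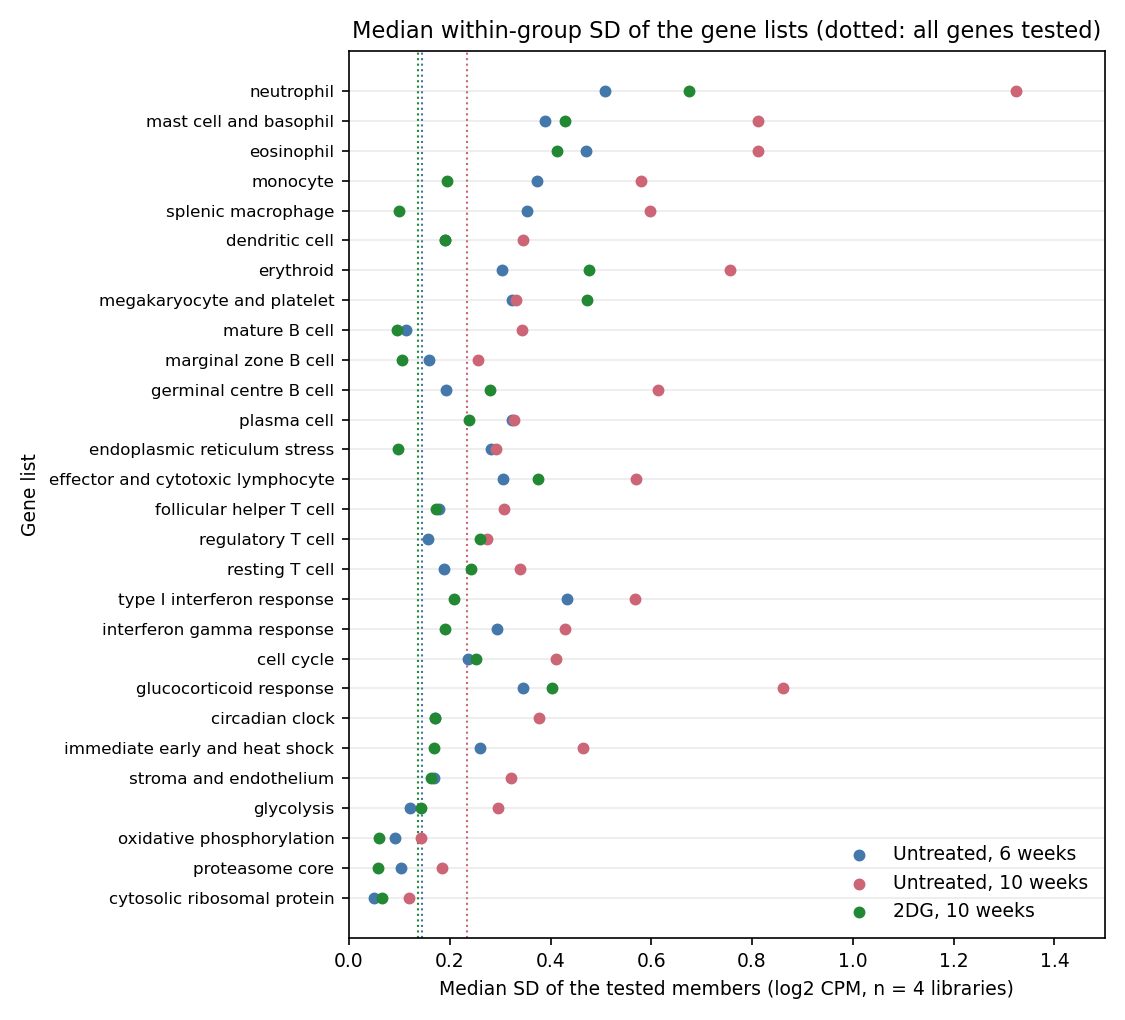
Median within-group SD (x axis, log2 CPM, 4 libraries per group) of the tested members of 28 gene lists (y axis) in the 3 groups, with dotted lines at the medians of all genes tested. The neutrophil list reaches 1.32 in untreated 10-week spleens, and the cytosolic ribosomal protein list stays at 0.12 or below in all groups.

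Variable segments of the immunoglobulin heavy and kappa chains were among the most scattered genes in every group. Each B cell clone carries its own pair of rearranged segments. The 78 Ighv segments had a median SD of 0.832, 1.01 and 0.652 in the 3 groups and the 81 Igkv segments 0.799, 0.988 and 0.646. Among the 200 genes with the largest SD, of 12544, they took 66 and 61 places at 6 weeks, 37 and 37 in untreated 10-week spleens and 52 and 59 with 2DG. Their share of the summed squared deviations was 17.8, 7.15 and 11.9% for Ighv and 16.2, 9.05 and 12.7% for Igkv. The 6 tested T cell receptor segments had medians of 0.261, 0.273 and 0.285. Reads shared between similar segments make single segments uncertain.

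Single segments could stand out in 1 or 2 libraries of a group. Igkv1-88, chosen after its values were seen, was at 88.1, 709.6, 28.3 and 17.3 CPM in replicates 5 to 8, against 15 to 39.1 at 6 weeks and 7.83 to 20.1 with 2DG. Igkv12-38, likewise chosen, was at 2.30, 4.24, 4.50 and 99.3 CPM in replicates 1 to 4 and at 64.7, 5.68, 229.6 and 1.83 in replicates 5 to 8. Both show 1 or 2 libraries far above the rest of their group.

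Of the 200 genes with the largest SD in each group, 81 (40.5% of each list) were shared by the untreated groups, 87 (43.5%) by the 10-week groups and 113 (56.5%) by 2DG and 6 weeks. In all 3 lists stood 59 genes, of which 45 were immunoglobulin genes. The other 14 were Chil3, Olfm4, Lcn2, Ngp, A2m, Wfdc21, Ltf, S100a8, Mmp8, Fcnb, S100a9, Prss34, Camp and Cd177. Most of them encode neutrophil granule proteins, such as Lcn2 (lipocalin), Ltf (lactoferrin) and Camp (cathelicidin), and Prss34 is a protease of mast cells and basophils.

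Type I interferon genes scattered widely in both untreated groups and little with 2DG. Their median SD was 0.43, 0.57 and 0.21, and 21 of 27 had at least 2 times the SD in untreated 10-week as in 2DG spleens, beside 39% of all genes. At 6 weeks 14 of 27 did, beside 17.1%. The co-movement ratio was 0.81, 0.65 and 0.27, so that the genes moved together in the untreated groups and less so with 2DG. These genes are switched on through an interferon-stimulated response element, and 3 of their promoters are printed below because the values of their genes follow for every library. Each is the 140 bases before the start of the gene, 5′ to 3′ on the strand of the gene, from RefSeq on GRCm38.p6. Capitals mark the core GAAANNGAAA on either strand. They are Rsad2 (viperin) at chr12:26456453-26456592 on the minus strand, Isg15 (a ubiquitin-like modifier) at chr4:156200819-156200958 on the minus strand, and Ifit1 (which binds foreign RNA) at chr19:34640749-34640888 on the plus strand.
Rsad2: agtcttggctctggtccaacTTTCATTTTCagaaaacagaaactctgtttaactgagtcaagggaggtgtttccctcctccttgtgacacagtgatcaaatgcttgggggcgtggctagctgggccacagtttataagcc
Isg15: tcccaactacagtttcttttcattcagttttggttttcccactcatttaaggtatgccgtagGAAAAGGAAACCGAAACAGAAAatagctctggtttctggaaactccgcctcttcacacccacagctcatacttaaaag
Ifit1: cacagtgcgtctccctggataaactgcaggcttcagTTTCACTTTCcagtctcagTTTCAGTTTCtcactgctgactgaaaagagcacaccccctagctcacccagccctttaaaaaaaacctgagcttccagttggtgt

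Rsad2 holds 1 match, Isg15 a run of 3 that overlap and Ifit1 2. In the 250 bases before the start, 11 of the 20 type I genes with a RefSeq promoter held this core (55%, with 27 on the list). So did 9 of 18 interferon gamma genes (50%, with 26 on the list), against 3.46% of 27025 genes. The core of the gamma-activated site, TTCNNNGAA, was in 15% and 50% of them, against 8.13%. A match of letters is a description, not a site.

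Rsad2 was at 193, 134, 102 and 100.4 CPM in replicates 1 to 4, 121, 15.7, 336 and 121 in replicates 5 to 8 and 258, 289, 272 and 170.3 in replicates 9 to 12. Replicate 6 was the lowest and replicate 7 the highest of all 12 libraries. Isg15, chosen after its values were seen, was at 52.4, 29.3, 32 and 22.5, then 54.2, 5.68, 85.9 and 22.1 and then 50.9, 46, 43.9 and 35.8 CPM, again with replicate 6 the lowest. Ifit1 was at 33.3, 15.5, 23 and 11.2, 22.6, 7.28, 23 and 16.5 and 14.4, 16.7, 10.8 and 17.9 CPM, with replicate 1 above and replicate 6 below all others.

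The list mean deviated by 0.57, -0.22, -0.0020 and -0.35 at 6 weeks, by 0.43, -0.92, 0.50 and -0.0082 in untreated 10-week spleens and by 0.032, 0.090, -0.17 and 0.047 with 2DG. Much of the 10-week spread rested on replicate 6: without it the median SD was 0.28, still above the 0.21 with 2DG. Without replicates 6 and 8 the median SD was 0.091, from 2 libraries. Replicate 6 also had the neutrophil list 1.40 above its group mean and the germinal centre list at -0.87, and the part of those cells in the interferon values was not tested.

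Interferon gamma genes followed another library. Their median SD was 0.29, 0.43 and 0.19, and 23 of 26 were widest in untreated 10-week spleens, beside 65.6% of all genes. The list deviated by 0.46, -0.076, 0.14 and -0.52 in replicates 5 to 8, high in replicate 5 and low in replicate 8, with replicate 6 near the mean. Cxcl9, a chemokine that interferon gamma induces, was at 420.0, 119, 254 and 85.9 CPM. Without replicate 8 the median SD was 0.26. The effector and cytotoxic lymphocyte genes had their lowest mean in the same library, with deviations of 0.35, 0.29, -0.0066 and -0.63, and Nkg7, a granule protein of those cells, was at 9.81, 21, 11.3 and 3.24 CPM.

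Replicate 8 also had the highest share of counts from mitochondrial genes in its group, 1.69, 1.72, 1.76 and 2.18% in replicates 5 to 8, and the lowest share from immunoglobulin genes, 10.7, 10.2, 8.97 and 5.11%. The globin share was 0.530, 0.132, 1.27 and 0.626%, lowest in replicate 6. Their part in the spread was not tested. Replicate 6 had 21953230 counts and 27490 genes detected, within the range of the other untreated 10-week libraries.

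Macrophage genes had a higher median SD in both untreated groups than with 2DG. The median SD of the 18 splenic macrophage genes was 0.35, 0.60 and 0.10, and 17 of 18 had at least 2 times the SD in untreated 10-week as in 2DG spleens, beside 39% of all genes, while 12 of 18 did so at 6 weeks, beside 17.1%. The list deviated by -0.62, 0.59, 0.19 and -0.16 in replicates 5 to 8, lowest in replicate 5 and highest in replicate 6, and without replicate 5 its median SD was 0.51. Cd163, a haemoglobin scavenger receptor of red pulp macrophages chosen after its values were seen, was at 6.21, 65.1, 19.8 and 19.7 CPM, in the order of the list at both ends. Marco, a scavenger receptor of marginal zone macrophages, was at 13.7, 56.7, 95.5 and 123 CPM in replicates 5 to 8, against 89.3 to 151 at 6 weeks and 136 to 196 with 2DG. Cd209b, a lectin of the same cells, was at 1.77, 8.12, 26.6 and 28.8 CPM, so replicate 5 was the lowest for both, and replicate 6 the next, unlike the list as a whole. Siglech, a receptor of plasmacytoid dendritic cells and the widest dendritic cell gene, was at 11, 5.21, 35.2 and 52.6 CPM, low in replicates 5 and 6. Monocyte genes had medians of 0.37, 0.58 and 0.19 with co-movement ratios of 0.34, 0.12 and 0.016, highest at 6 weeks. The SD of their list mean was 0.34, 0.32 and 0.040, close in the untreated groups.

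At 6 weeks several of the widest genes were highest in the same library. Fcgr4, an activating IgG receptor of monocytes and macrophages, was at 27, 18.3, 86.3 and 13.5 CPM in replicates 1 to 4, and Cd5l, an apoptosis inhibitor that macrophages secrete, at 25.3, 58.3, 144 and 34.9. Raver2, an RNA-binding protein and the named gene with the largest SD of that group, was at 5.01, 5.92, 31.7 and 3.50 CPM, and Hs3st2, a heparan sulphate sulphotransferase, at 4.21, 5.17, 13.6 and 2.15. All 4 were highest in replicate 3. In the 2DG group Raver2 stayed at 6.83 to 7.45 CPM, a SD of 0.065 against 1.40 at 6 weeks.

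**Figure D4:**
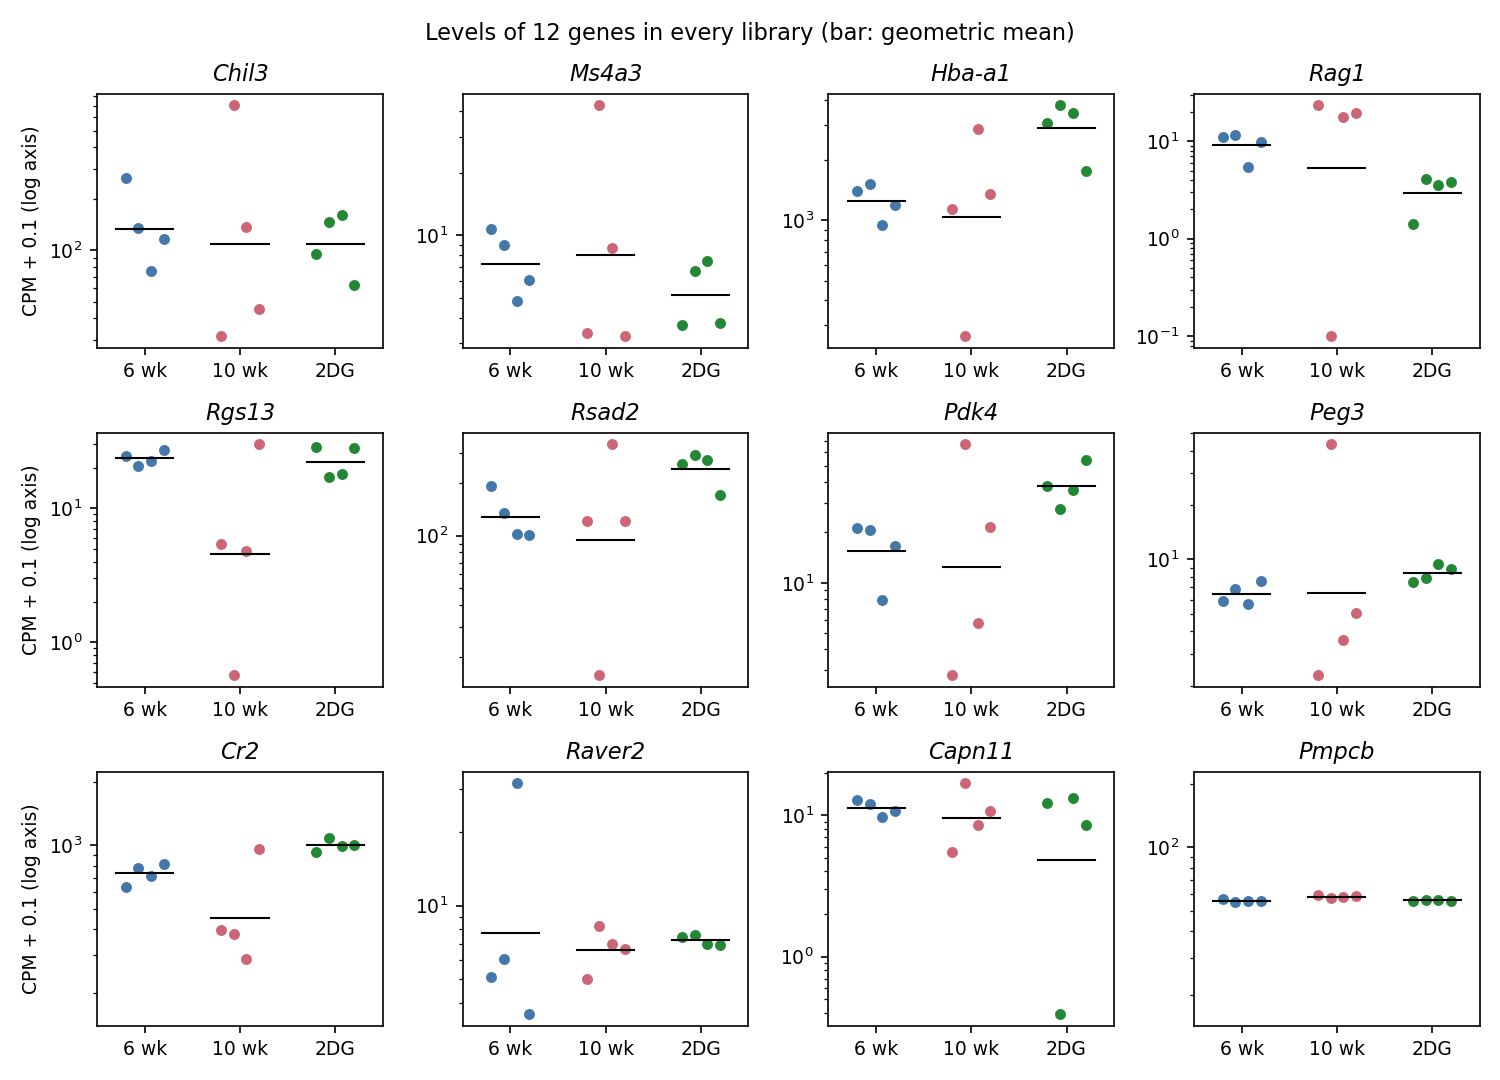
CPM plus 0.1 (y axis, log axis) of 12 genes in each of the 4 libraries of the 3 groups (x axis), with the geometric mean as a bar. In the untreated 10-week group, in the middle of each panel, Chil3, Ms4a3, Pdk4 and Peg3 have 1 high library and Rag1 1 library at 0 counts, while Pmpcb does not visibly scatter.

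Genes that glucocorticoids induce, and clock genes, were wide in untreated 10-week spleens. The 10 glucocorticoid response genes had median SDs of 0.34, 0.86 and 0.40, and 8 of 10 had at least 2 times the SD at 6 weeks, beside 36.1% of all genes. They deviated by -0.70, 1.17, -0.53 and 0.052 in replicates 5 to 8. Fkbp5, a co-chaperone of the glucocorticoid receptor chosen after its values were seen, was at 60.9, 285, 68.5 and 84.1 CPM. Without replicate 6 the median of the list was 0.49. The 17 clock genes deviated by -0.34, 0.54, -0.21 and 0.0093, with medians of 0.17, 0.38 and 0.17. Without replicate 6 the untreated 10-week median of the clock list was 0.28. Nr1d1, a repressor in the clock, was at 5.27, 19.3, 7.59 and 9.04 CPM, and Pdk4, a kinase that restrains glucose oxidation, at 2.71, 67.1, 5.65 and 21.4 CPM. In all of these replicate 6 was the highest and replicate 5 the lowest or next to it. The time of day of collection is not given in the labels, and its part was not tested.

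The widest single genes of the untreated 10-week group were Rag1 and Apol11a. Rag1, the recombinase of lymphoid precursors (ENSMUSG00000061311.6, chromosome 2, 101638282 to 101649501, GRCm38), was at 23.4, 0, 17.8 and 19.4 CPM in replicates 5 to 8, with 0 counts in replicate 6. Its SD of 3.90 depends on the prior count added to that 0, was 4.90 with a prior count of 0.5, and was 0.21 without replicate 6. Apol11a and Apol11b, a pair of apolipoprotein L genes on chromosome 15 (ENSMUSG00000091650.2, chromosome 15, 77508271 to 77518051, and ENSMUSG00000091694.9, chromosome 15, 77633946 to 77643286, GRCm38), were at 63.5, 0.423, 41.4 and 3.96 and at 276, 13, 374 and 63.6 CPM. Both were low in replicates 6 and 8 and high in replicates 5 and 7. They are similar genes, so reads they share make each level uncertain. Peg3, an imprinted gene, was at 2.19, 43.3, 3.46 and 4.94 CPM and Abca8a, a lipid transporter, at 4.17, 58.9, 4.45 and 5.20, each with replicate 6 alone high. Without it their SDs were 0.56 and 0.15 in place of 1.89 and 1.83.

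Among resting T cell genes the median SD was 0.19, 0.34 and 0.24, and the list deviated by -0.18, 0.35, -0.19 and 0.024 in replicates 5 to 8. Il7r, the interleukin 7 receptor chain, was at 33.1, 191, 48.8 and 59 CPM, with replicate 6 the highest. The SD of Il7r was 1.09 and, without replicate 6, 0.42. Follicular helper and regulatory T cell genes had medians of 0.18, 0.31 and 0.17 and of 0.16, 0.27 and 0.26. Il21, the cytokine that helper cells give to B cells, was at 29.9, 14.6, 19.3 and 10.5 CPM.

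Oxidative phosphorylation genes had medians of 0.092, 0.14 and 0.059, proteasome core genes 0.10, 0.18 and 0.057 and cytosolic ribosomal protein genes 0.050, 0.12 and 0.065, beside 0.0818, 0.142 and 0.0759 for all genes from 6 to 8 on the log2 CPM scale. 29 of 34 ribosomal, 31 of 36 oxidative phosphorylation and 14 of 14 proteasome genes were widest in untreated 10-week spleens, beside 65.6% of all genes. The ribosomal list deviated by 0.16 and the proteasome list by 0.25 in replicate 5, the highest of their group. Without replicate 5 the untreated 10-week medians were 0.085 for oxidative phosphorylation, 0.086 for proteasome and 0.073 for ribosomal genes. Glycolysis genes, the pathway that 2DG blocks, had medians of 0.12, 0.30 and 0.14 and co-movement ratios of 0.16, 0.23 and 0.022. 19 of 24 had at least 2 times the SD at 6 weeks, beside 36.1%, and 12 of 24 at least 2 times that with 2DG, beside 39%. The glycolysis list deviated by 0.23 in replicate 5, the highest of its group, and without that library its median SD was 0.16. Aldoc, an aldolase, was at 9.18, 2.82, 6.72 and 5.37 CPM.

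The steadiest genes, among those with an average log2 CPM of at least 5, included Pmpcb, Pak2 and Pcf11. Pmpcb, a subunit of the mitochondrial processing peptidase, stayed at 55.3 to 57, at 57.6 to 59.1 and at 55.5 to 56.6 CPM in the 3 groups, with SDs of 0.019, 0.016 and 0.012. Pak2, a kinase of the cytoskeleton, had SDs of 0.0055, 0.023 and 0.030.

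In each group about equal parts of the variance lay on 1 axis, but the axes differed in their genes. The first principal component of the deviations of the 12544 genes carried 48.2% of the variance at 6 weeks, 52.5% in untreated 10-week spleens and 49.5% with 2DG, where 4 libraries allow 3 axes. The direction in gene space of the untreated 10-week axis carried 2.99% of the 6-week and 1.95% of the 2DG variance. The 6-week axis carried 8.49% of the untreated 10-week and 5.05% of the 2DG variance, and the 2DG axis 4.11% and 1.85% of the untreated 10-week and 6-week variance. These are descriptions of 4 libraries each, with no test.

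The untreated 10-week axis set replicate 6, at 0.350 log2 CPM per gene, against replicates 5, 7 and 8 at -0.189, -0.114 and -0.0469. Its genes of largest weight were Pdk4, Chil3, Peg3 and Abca8a on the side of replicate 6 and Rag1, Apol11a, Rgs13 and Apol11b on the other. The second axis set replicate 8, at -0.255, against replicate 5, at 0.145. At 6 weeks the first axis ran from replicate 4, at -0.153, to replicate 1, at 0.166. The genes of largest weight were Fcgr4, Ly6k, Ankrd55 and Ifit1 on the side of replicate 1, and included Nr1d1, Dnm1 and Zbtb16 on the side of replicate 4. Fcgr4, given above, was highest in replicate 3, which lay on the side of replicate 1 at 0.0404. Along it lay the type I interferon list, at 0.57 and -0.35 in replicates 1 and 4, the monocyte list, at 0.43 and -0.39, and the endoplasmic reticulum stress list, at 0.27 and -0.35.

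With 2DG the first axis ran from replicate 10, at -0.147, to replicate 12, at 0.163. One end, that of replicate 12, held Capn11, A2m, Errfi1 and Serpina3f, and the other Olfm4, Cebpe, Chil1 and Slc30a10. Errfi1, a feedback inhibitor of the EGF receptor, was at 61.7, 34.5, 43.2 and 78.3 CPM in replicates 9 to 12, and Slc30a10, a manganese exporter, at 13.3, 19.6, 9.87 and 6.65. Capn11, a calpain protease, was at 12, 0.293, 13.2 and 8.48 CPM, the largest SD of the named genes of that group, and rested on replicate 10. The erythroid and platelet lists were both high in replicate 10, at 0.47 and 0.44, and both low in replicate 12, at -0.64 and -0.55.

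**Figure D5:**
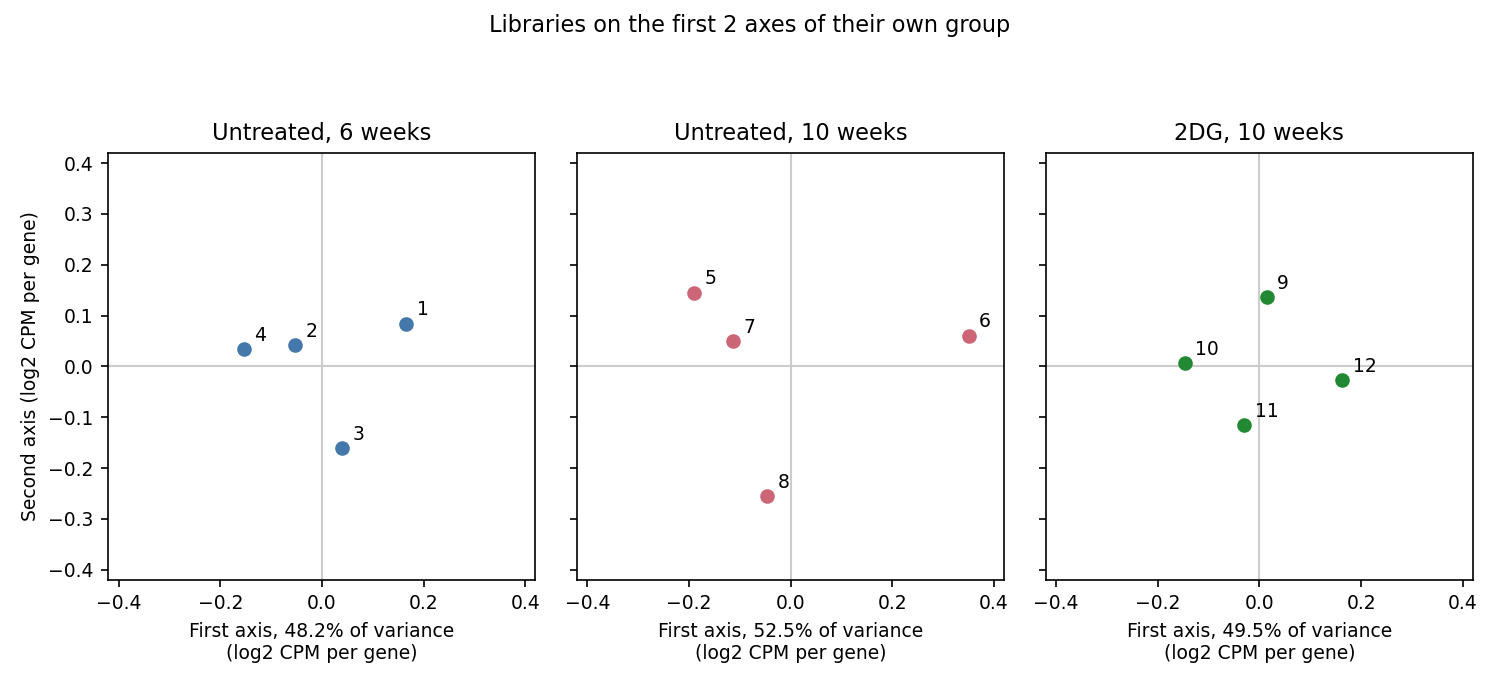
Scores of the 4 libraries of each group on the first and second principal axes of that group's own deviations (x and y axes, log2 CPM per gene; points labelled by replicate). In the untreated 10-week group replicate 6 lies alone at 0.350 on the first axis and replicate 8 at -0.255 on the second, farther out than any library of the other groups.

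Without replicates 6 and 8 the untreated 10-week spread was smaller. The median SD over all genes was 0.195 without replicate 6 and 0.151 without both. The neutrophil list kept a median of 1.29 from replicates 5 and 7 alone, and the macrophage list 0.54. The erythroid list was at 0.63, the cell cycle list at 0.081 and the mature B cell list at 0.12. The neutrophil, macrophage and erythroid lists thus also differed between replicates 5 and 7, and replicate 5 lay second farthest from the group mean of all 4.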

How the data were processed

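Poly(A)-selected libraries of total spleen RNA were made with a TruSeq RNA v2 kit, per the labels' protocols. The counts deposited by the authors are whole numbers, 1 per gene and library. Per the submitters' processing notes, Bowtie2 2.2.0, RSEM 1.2.12 and GRCm38 were used, in roles that are not stated. The treatment of reads shared by several genes is not stated either. Names came from GENCODE M21 (53620 of 53715 matched).

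Counts were scaled by TMM in edgeR 4.0.16 (R 4.3.3), filtered with filterByExpr by group and put on log2 CPM with a prior count of 2. CPM printed carry no prior count. Spread was tested with limma 3.58.1 (trend, robust) on absolute deviations from the group mean, over all 12 libraries, Benjamini-Hochberg adjusted over 18542 genes, threshold 0.05. The fit as planned made too many calls on simulated data, so the correlation of 4 deviations from their mean, 0.0983, was added after the data were seen. Tested again on simulated data for untreated 10 weeks against 6 weeks (18351 genes, none changed), it gave 4.53% at an unadjusted p under 0.05. Library distances were compared by exact permutation, two-sided. Depth limits low genes, and counting SDs assume Poisson counts.

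Members and the 35 gene lists were chosen with earlier results of these data known. Named genes had an average log2 CPM of 2 or more and were no immunoglobulin or T cell receptor segments, pseudogenes or predicted models. They were the 8 widest per group, 4 at each end of each first axis, the widest member at 10 weeks of each of 20 lists, and, from an average log2 CPM of 5 up, the 5 steadiest. Others are said to be chosen after their values were seen, and some named by the rule are not reported here. Alternatives used DESeq2 1.42.0 (size factors, variance stabilising transformation), other filters, thinning, other deviations and left-out libraries.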

Additional observations from a re-analysis of the deposited data

Results flagged for a closer look

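In groups of 4 libraries, a value was marked where the gap between the lowest or highest library and the next exceeded Dixon's critical share of the group's range (on log2 of CPM plus 0.1 for genes). Of 279 groups examined 11 were marked, 3.94%. Chance marks about 1 in 20 of independent groups, but many of these genes were named for their spread in the same libraries. Genes also move together and lists share members, so the 2 rates cannot be compared. In untreated 10-week spleens replicate 8 had the highest mitochondrial share, 2.18% of counts against 1.69 to 1.76%, and the lowest Cd5l, 71.7 CPM against 122 to 127, and Serpina3f, a serpin, 30.1 against 84.1 to 97.6. Replicate 6 had Rag1 at 0 CPM against 17.8 to 23.4 and Abca8a at 58.9 against 4.17 to 5.20. Replicate 5 had Dnm1, a dynamin, at 2.03 CPM against 4.29 to 4.94. With 2DG, Rag1 was at 1.30 CPM in replicate 9 against 3.42 to 4.02, Capn11 at 0.293 in replicate 10 against 8.48 to 13.2, and Apol11a at 3.53 and Apol11b at 78.3 in replicate 12 against 5.72 to 6.10 and 127 to 139. At 6 weeks Nr1d1 was at 3.50 CPM in replicate 1 against 8.90 to 9.24.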

How the results depend on the processing

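No result changed direction. The distances of untreated 10-week libraries did not overlap those of the other groups in any of 23 settings. Leaving out each library gave differences from 0.0727 to 0.146 against 6 weeks and from 0.0822 to 0.159 against 2DG, with an adjusted p of 0.0429 to 0.0857 (exact permutation test). For 2DG against 6 weeks they ran from -0.0233 to -0.00181.

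Counts of genes with unequal spread (limma, adjusted p) were 529, 555 and 486 for 10 weeks against 6 weeks, 10 weeks against 2DG and 2DG against 6 weeks with no filter, where most added genes have few counts, 37, 56 and 3 with squared deviations, 5 for 10 weeks against 2DG with deviations from the median, 3 for 2DG against 6 weeks when only those groups were fitted, and 67 and 98 for the first pairs without the correlation of deviations. Leaving out each library gave 0 to 1, 0 to 0 and 0 to 0; the 1 came without 6-week replicate 3. The cause of these differences was not tested.

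The median SD (6 weeks, untreated 10 weeks, 2DG) was 0.110, 0.167 and 0.104 after the variance stabilising transformation, 0.241, 0.295 and 0.241 with no filter, 0.107, 0.177 and 0.0999 for average log2 CPM of at least 2, and 0.120 for 2DG with 1 CPM in 4 libraries. It was 0.151 for untreated 10 weeks without replicates 6 and 8, where the spread test and the distances could not be fitted because 2 deviations from their mean are equal in size. Leaving out each library gave 0.128 to 0.149, 0.195 to 0.238 and 0.127 to 0.140. With immunoglobulin genes removed the first axis carried 58.1% in untreated 10-week and 55.3% in 2DG spleens.

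Of 3630 values of named genes 3500 moved by less than the standard error of an SD, as did 2190 of 2238 of lists. No paired analysis was possible because the replicate numbers run from 1 to 12 and no 2 groups share one.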

Other observations

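Genes of lymphoid precursors, chosen after their values were seen, were like Rag1 lowest in replicate 6 of the untreated 10-week spleens. Rag2, the partner of Rag1, was at 3.81, 0, 3.18 and 1.32 CPM in replicates 5 to 8. Igll1 and Vpreb1, which form the surrogate light chain of pre-B cells, were at 6.94, 0, 3.55 and 0.682 and at 2.71, 0.141, 2.02 and 0.426 CPM. Dntt, which adds bases at recombined joints, was at 11.6, 3.52, 11.8 and 13.2 CPM. Replicate 6 was the lowest for all 4, with 0 counts for Rag2 and Igll1. Unlike Rag1, the genes Rag2, Igll1 and Vpreb1 were also lower in replicate 8 than in replicates 5 and 7, and they had few counts. Vpreb3, likewise chosen and with more counts, dropped less in replicate 6. It was at 21.1, 12.8, 20.1 and 25.9 CPM, a SD of 0.43 against 0.25 at 6 weeks. At 6 weeks Rag2 was at 1.64, 1.15, 0.383 and 0.798 CPM and Dntt at 6.25, 7.65, 5.07 and 5.34, with narrower ranges.

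Several genes that fibroblasts and stromal cells express, chosen in the same way, were highest in replicate 6. Lepr, the leptin receptor, was at 58.4, 246, 31.8 and 24.6 CPM, Ccl21a, a chemokine of T zone stroma, at 7.57, 118, 26 and 45.4, Gpc3, a glypican, at 3.39, 21.5, 3.22 and 4.73, and Dnm3os, a long noncoding RNA, at 2.97, 40.0, 7.84 and 11.4. Reads of Ccl21a may be shared with near-identical copies. The 25 stroma and endothelium genes as a list deviated by -0.24, 0.26, -0.057 and 0.036 in replicates 5 to 8, with co-movement ratios of 0.22, 0.15 and 0.17 in the 3 groups, so the list as a whole did not move as a unit.

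Il10, an inhibitory cytokine chosen after its values were seen, had its largest SD at 6 weeks, 1.09 against 0.65 and 0.48. It was at 2.48, 1.59, 5.31 and 0.798 CPM in replicates 1 to 4, with replicate 3 the highest, as for Fcgr4, Cd5l and Raver2. Ighg3, the constant region of IgG3, was at 1872, 505, 493 and 122 CPM in replicates 1 to 4.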
